A study of Homo sapiens with 6 samples.

Results

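The transcripts of the microtubule motors, the kinesins, cytoplasmic dynein and dynactin, were followed in RNA that came down with the RNA-binding protein Staufen1 (Stau1) and in a control precipitation. Members were the array targets whose gene symbol is KIF or KIFC followed by a digit or begins with DYNC, DYNLL, DYNLT, DYNLRB or DCTN, which gave 58 of the 37879 targets. They comprise 13 mitotic kinesins, 26 transport and other kinesins, 7 heavy, intermediate and light intermediate chains of dynein, 6 dynein light chains and 6 dynactin subunits. HEK293T cells, a transformed line derived from human embryonic kidney, were transfected with a plasmid for Stau155-FLAG, an isoform of Stau1 joined to the FLAG peptide, or with the empty vector. All cultures were held in prometaphase with nocodazole, a drug that depolymerizes microtubules, at 50 ng/ml for 15 h per the labels, and all lysates went through the same anti-FLAG immunoprecipitation (IP). The RNA of 3 control IPs (empty vector) and 3 Stau1 IPs was measured on 6 Illumina BeadChips, so that the comparison asks which transcripts were more or less abundant with the tagged protein than without it. The tagged protein was made from a plasmid in addition to the cells' own Stau1, and the RNA that entered each IP was not compared here.

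Kinesins and dynein turn ATP hydrolysis into steps along microtubules. Most kinesins walk towards the plus end, the kinesin-13 family takes tubulin off microtubule ends, and the KIFC motors and dynein move towards the minus end. In dividing cells these motors push the spindle poles apart, align the chromosomes and organize the midzone for cytokinesis, and in other phases they carry vesicles, organelles and messenger ribonucleoproteins. Dynein needs dynactin for processive transport. Stau1 binds double-stranded regions of mRNA and is known for roles in mRNA transport along microtubules, translation and decay.

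The median signal was 87.9 to 102 across the 6 arrays, the median number of beads behind a target was 41, and 11635 to 13054 targets per array had a detection p under 0.05, taken here as detected. Between 40 and 45 of the 58 motor transcripts were detected on each array, the fewest on Stau1 IP array 2. The array labelled Stau1 IP 2 stood apart from its group. Over the 9884 targets detected on all 6 arrays, its Pearson correlation with Stau1 IP arrays 1 and 3 was 0.937 and 0.939, against 0.955, 0.947 and 0.971 with control IP arrays 1, 2 and 3 and 0.995 between Stau1 IP arrays 1 and 3. The array labelled control IP 2 correlated at 0.982 and 0.983 with Stau1 IP arrays 1 and 3, and at 0.975 and 0.980 with control IP arrays 1 and 3. Both arrays thus lay nearer to the other group, control IP 2 by a small margin, and the groups of the arrays numbered 2 may have been exchanged. They were therefore kept in the groups of their labels, given singly, and left out in a parallel comparison of 2 arrays against 2. STAU1 itself had normalized levels of 11.38, 11.50 and 11.44 (log2) on control IP arrays 1 to 3 and 11.45, 10.91 and 11.46 on Stau1 IP arrays 1 to 3, so that its level did not separate the groups. Of the HEK293T markers, KRT8, KRT18, VIM and NEFL were detected on all 6 arrays, LHX1 on 2 and PAX2 on 1. Of the blood and liver markers, PTPRC, HBB and ALB were detected on none. By the labels none of the markers named here had an unadjusted p under 0.05 in limma. Without the arrays numbered 2, 3 of the 6 HEK293T markers were lower at an unadjusted p under 0.05, where 9.92% of all targets were, namely KRT8 (-1.01, adjusted p = 0.0537 by limma), NEFL (-1.11, adjusted p = 0.154) and PAX2 (-0.27, adjusted p = 0.244). The part of these shifts in the results without those arrays was not tested. Nothing in the labels says that the 3 IPs of a group came from separate cultures, so that the p-values measure the spread between these arrays, which may be technical, and their small number limits the precision of all values.

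The motor transcripts lay lower in the Stau1 IPs than in the control IPs more often than higher. At the threshold of the methods, more than 2.5-fold at an unadjusted p under 0.05, 0 of the 58 members were enriched (0.0264% of all targets). The mitotic kinesin KIF20B, 1 member, was depleted (0.0343% of all targets). With so small a share enriched over all targets, a count of 0 says little about the members. With Benjamini-Hochberg adjustment over all targets in limma, 0 members passed in either direction (0% of all targets), and the lowest adjusted p among them was 0.210 (limma). The methods' t-test, run on these levels with the same adjustment, also gave 0. At an unadjusted p under 0.05 in limma, 14 members (24.1%) were lower in the Stau1 IPs, where 5.16% of all targets were, and 2 (3.45%), KIF7 and KIF24, were higher, where 4.44% of all targets were. The median log2 fold change of the members was -0.106, and that of all targets was 0.001. Detection differs between these sets, since 36 members (62.1%) but 26.1% of all targets were detected on all 6 arrays. Of these 36 members, 11 (30.6%) were lower at an unadjusted p under 0.05, where 12.1% of the targets detected on all 6 arrays were, and 2 (5.56%) were higher, where 10.4% were. The 3 Stau1 IP arrays lay below all 3 control IP arrays for 14 members (24.1%, against 7.80% of all targets) and above them for 3 (5.17%, against 6.71%). KIF18A is counted among the lower members on both criteria, and KIF21B among the 3 above, although neither passed detection on any array. A level here is RNA recovered in an IP, so that a lower level does not measure how much of the transcript the cells held. An IP also pools a whole culture, so that recovery from fewer cells and less recovery per cell cannot be told apart. The median of the members was -0.166 without Stau1 IP array 2, -0.068 without control IP array 3, -0.029 after the variance stabilizing transformation and spline normalization rebuilt from the methods, and -0.007 with the background as limma infers it. With median centring in place of quantile normalization, 13 members were lower and 0 higher at an unadjusted p under 0.05, where 4.97% and 3.19% of all targets were.

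With both arrays numbered 2 left out, the shift towards lower levels was larger and single transcripts passed the adjusted threshold. The median log2 fold change of the members was -0.225, against -0.012 for all targets. Among targets detected on all 6 arrays it was -0.397 for the members and -0.081 for all such targets. By limma with Benjamini-Hochberg adjustment over all targets, 7 members (12.1%) fell, namely KIF20B, KIF2A, KIF20A, KIF5B, KIF3C, DYNLRB1 and DCTN3, where 2.44% of all targets did. A single member (1.72%), KIF13B, rose, where 3.28% of all targets did. Among the 36 members detected on all 6 arrays, 6 fell and 1 rose, where 7.82% and 8.70% of the targets detected on all 6 arrays did. At the threshold of the methods 0 members were enriched (1.21% of all targets) and KIF20B alone was depleted (0.285% of all targets). This comparison has 2 arrays per group and was chosen because of how the arrays numbered 2 behave. The number of adjusted calls among the members depended on the normalization, and so did that among all targets. After the rebuilt transformation 3 members were lower and 0 higher, where 1.72% and 2.23% of all targets were. With median centring 3 were lower and 1 higher (1.22% and 3.97% of all targets), and without background correction 9 and 3 (4.08% and 4.51%). With the background as limma infers it no member passed (0.232% and 0.422%). DCTN3 and KIF2A passed under the rebuilt transformation, median centring and no background correction.

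**Figure D1:**
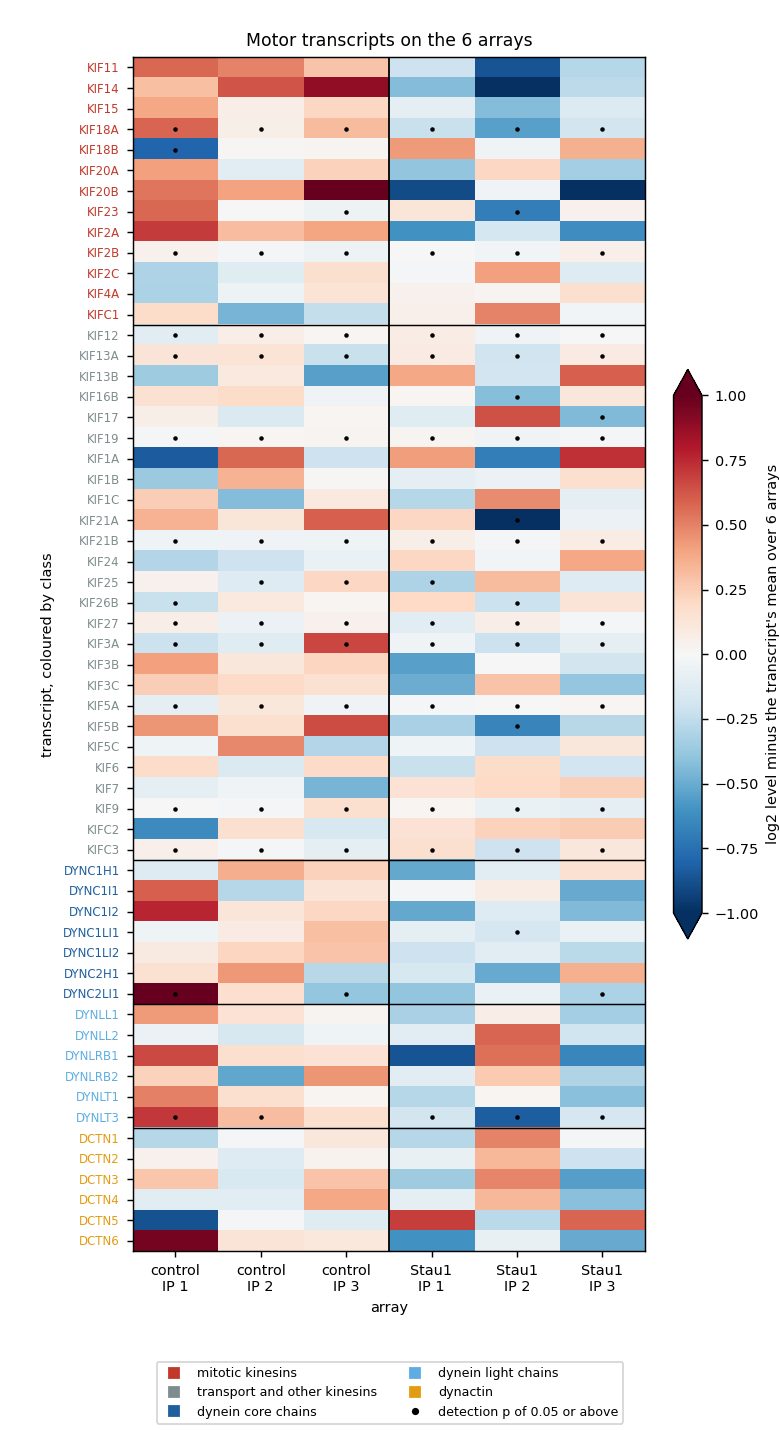
Normalized level of each motor transcript on each of the 6 arrays, as the difference in log2 from that transcript's mean over the arrays. Red is above and blue below the mean, black dots mark a detection p of 0.05 or above, gene names are coloured by class, and the vertical line separates the 3 control IP arrays from the 3 Stau1 IP arrays. KIF11, KIF14, KIF20B and KIF2A are red on the control side and blue or pale on the Stau1 side, while KIF1A shows the array numbered 2 of each group apart from its neighbours.

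Among the mitotic kinesins, the spindle and cytokinesis motors KIF20B, KIF14, KIF2A and KIF11 had the most negative differences between the Stau1 IPs and the control IPs. Of the 13 members of this class, 6 (46.2%, against 5.16% of all targets) were lower at an unadjusted p under 0.05 by limma and 0 were higher (against 4.44%), with a median log2 fold change of -0.353. Among targets detected on all 6 arrays, 12.1% were lower and 10.4% higher. KIF20B, a midzone kinesin of cytokinesis, had normalized log2 levels of 8.31, 8.18 and 8.93 on control IP arrays 1 to 3 and of 6.88, 7.74 and 6.63 on Stau1 IP arrays 1 to 3, the order in which values are given throughout. All control IP arrays lay above all Stau1 IP arrays, and Stau1 IP array 2 was the one nearest to them. The log2 fold change of KIF20B was -1.39 (95% confidence interval -2.21 to -0.57, adjusted p = 0.276 by limma), a level 2.62-fold lower in the Stau1 IPs. Without the arrays numbered 2 it fell by 1.86 (standard error 0.23, adjusted p = 0.0200 by limma), a call lost after the rebuilt transformation (-0.87, adjusted p = 0.111) and with the background as limma infers it (-0.31, adjusted p = 0.295). By the labels KIF20B no longer reached 2.5-fold without control IP array 3 (-1.16), Stau1 IP array 1 (-1.29) or Stau1 IP array 3 (-1.16), nor after the rebuilt transformation (-0.65), without background correction (-1.04) or with the background as limma infers it (-0.23).

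KIF14, which is needed for the last steps of cytokinesis, measured 7.20, 7.53 and 7.79 (log2) in the control IPs against 6.47, 5.78 and 6.64 in the Stau1 IPs. Its lowest value was on Stau1 IP array 2, so that this array stood on the side of its label. The signal there was close to background, at 120 with a detection p of 0.0435. The difference of -1.20 (standard error 0.26) had an adjusted p of 0.242 by limma, and it passed the threshold of the methods without control IP array 1 (-1.36) or without Stau1 IP array 3 (-1.38). It was -0.32 after the rebuilt transformation, -0.76 without background correction and -0.10 with the background as limma infers it. KIF11, the motor that slides antiparallel microtubules to separate the spindle poles, followed the same order, with 9.16, 9.08 and 8.87 in the control IPs against 8.38, 7.72 and 8.30 in the Stau1 IPs. The groups were well apart, and again Stau1 IP array 2 was the lowest of the 6. The difference was -0.90 (standard error 0.19, adjusted p = 0.237 by limma) with all arrays and -0.68 (adjusted p = 0.0584 by limma) without those numbered 2, and by the labels it was -0.27 with the background as limma infers it.

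The microtubule depolymerase KIF2A read 10.20, 9.81 and 9.89 in the control IPs against 8.89, 9.32 and 8.88 in the Stau1 IPs. The Stau1 IP arrays 1 and 3 were nearly equal and lowest, and Stau1 IP array 2 lay between them and the controls. KIF2A had the lowest adjusted p of all members by the labels (-0.94, standard error 0.17, adjusted p = 0.210 by limma) and fell by 1.16 without the arrays numbered 2 (adjusted p = 0.0189 by limma), a call lost with the background as limma infers it (-0.74, adjusted p = 0.180). KIF20A, which brings the chromosomal passenger complex to the midzone, behaved otherwise. Its levels were 12.10, 11.59 and 11.92 in the control IPs against 11.30, 11.90 and 11.35 in the Stau1 IPs, so that the arrays numbered 2 lay on the side of the other group and the groups overlapped. By the labels the difference was -0.35 (adjusted p = 0.710 by limma), and without those arrays it was -0.68 (adjusted p = 0.0389 by limma), or -0.62 with median centring (adjusted p = 0.0615).

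Not every mitotic motor was lower. KIF15, which can share the work of KIF11, had a log2 fold change of -0.44 (unadjusted p = 0.0150 in limma, adjusted p = 0.364). The signal of KIF15 lay close to background, at 117 to 155. KIF23, the kinesin of the centralspindlin complex, had -0.35 with overlapping groups and was detected on 4 arrays. KIF2C, a depolymerase at kinetochores, had 0.17, the chromokinesin KIF4A had 0.16, the minus-end motor KIFC1 had 0.35 and KIF18B, which shortens astral microtubules, had 0.50, all with overlapping groups. KIF18A and KIF2B were detected on no array, and no fold is given for them, although KIF18A is among the 6 of this class with an unadjusted p under 0.05. The table lists KIF20B, KIF11 and KIF5B on chromosome 10 and names no genome build.

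**Figure D2:**
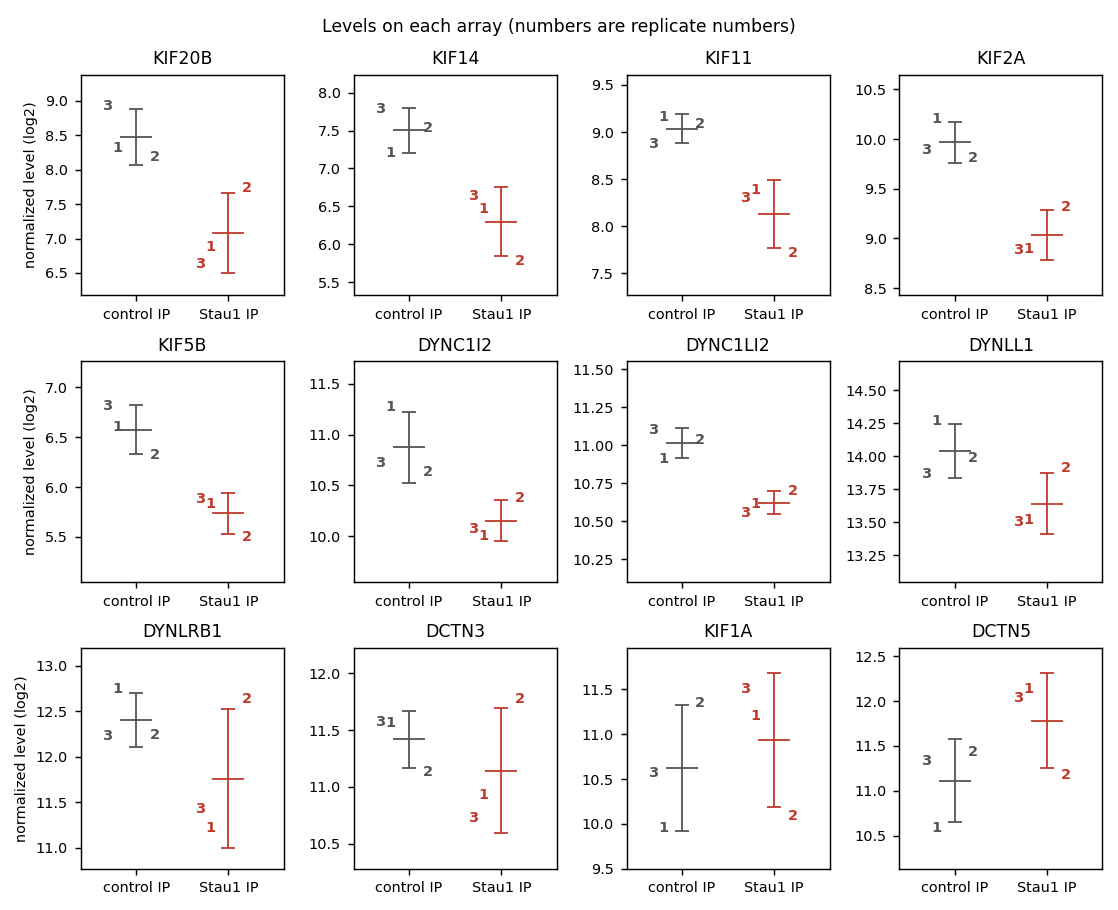
Normalized log2 level of 12 motor transcripts, with each array drawn as its replicate number, control IP in grey and Stau1 IP in red, the long bar at the mean and the whiskers at 1 SD over 3 arrays. The vertical axes differ between panels. The groups are apart for KIF20B, KIF14, KIF11, KIF2A, KIF5B, DYNC1I2 and DYNC1LI2, while for DYNLRB1, DCTN3, KIF1A and DCTN5 the array Stau1 IP 2 lies among or beyond the control IP arrays.

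The transport and other kinesins were not displaced as a class, although the levels of KIF5B and KIF3B were apart and lower in the Stau1 IPs. The 26 members had a median log2 fold change of -0.004, with 2 lower and 2 higher at an unadjusted p under 0.05 by limma (7.69% each, against 5.16% and 4.44% of all targets), and 9 of them were detected on no array. KIF5B, the heavy chain of conventional kinesin that is found in most tissues, measured 6.60, 6.32 and 6.81 (log2) in the control IPs against 5.83, 5.50 and 5.88 in the Stau1 IPs. All control IP arrays were higher, and the array Stau1 IP 2 was both the lowest and the only one on which KIF5B was not detected. By the labels the difference was -0.84 (standard error 0.16, adjusted p = 0.230 by limma), and without the arrays numbered 2 KIF5B fell by 0.85 (adjusted p = 0.0265 by limma). Its signal lay close to background, at 114 to 168 where the array medians were 87.9 to 102, and the difference without those arrays was -0.15 after the rebuilt transformation (adjusted p = 0.0970 by limma). KIF5C, the neuronal form of the same heavy chain, had a difference of -0.09, and KIF5A was not detected.

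Of the kinesin-2 subunits, which carry cargo along the cilium and in the cytoplasm, KIF3B was lower by the labels (-0.49, unadjusted p = 0.0218 and adjusted p = 0.404 by limma) with groups apart. KIF3C read 6.66, 6.61 and 6.57 in the control IPs against 5.92, 6.70 and 6.03 in the Stau1 IPs. The array Stau1 IP 2 was the highest of the 6 and the other Stau1 IP arrays the lowest. KIF3C fell by 0.64 without the arrays numbered 2 (adjusted p = 0.0399 by limma), and the difference was -0.11 after the rebuilt transformation (adjusted p = 0.133 by limma). The signal of KIF3C lay near background, at 128 to 189. KIF17, the homodimeric member of that family, had 0.04, and KIF3A was not detected.

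On the higher side stood KIF7, a regulator of Hedgehog signaling at the ciliary tip, and KIF24, a centriolar kinesin. KIF7 had a log2 fold change of 0.39 (adjusted p = 0.408 by limma) and KIF24 one of 0.38 (adjusted p = 0.414 by limma), both with groups apart. KIF13B, a vesicle motor, measured 6.53, 6.98 and 6.34 in the control IPs against 7.27, 6.69 and 7.48 in the Stau1 IPs. The arrays numbered 2 were the highest control and the lowest Stau1 array, and they crossed. KIF13B rose by 0.94 without them (standard error 0.13, adjusted p = 0.0275 by limma), against 0.53 by the labels (adjusted p = 0.609 by limma). After the rebuilt transformation the difference without them was 0.24 (adjusted p = 0.0726 by limma).

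KIF1A, a carrier of synaptic vesicle precursors, showed a wide spread within both groups. Its levels were 9.95, 11.35 and 10.57 in the control IPs against 11.20, 10.09 and 11.51 in the Stau1 IPs. The array control IP 2 read as high as Stau1 IP arrays 1 and 3, and the array Stau1 IP 2 read as low as control IP array 1. The difference was 0.31 by the labels (standard error 0.49) and -0.03 without control IP array 1, and it was 1.09 without the arrays numbered 2 (adjusted p = 0.0707 by limma). The related KIF1B and KIF1C had differences of 0.00 and 0.06 by the labels. KIF21A, which curbs microtubule growth at the cell cortex, had -0.72 with overlapping groups and was not detected on Stau1 IP array 2. The remaining detected members, KIF6, KIF16B, KIF25, KIF26B and KIFC2, had differences between -0.20 and 0.42 with overlapping groups.

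All 7 dynein chains of the DYNC symbols had a log2 fold change below 0, where 49.8% of all targets did. The median was -0.311, 2 members (28.6%, against 5.16% of all targets) were lower at an unadjusted p under 0.05 by limma and 0 were higher, and 0 passed the adjusted threshold in either comparison. At that unadjusted p, 12.1% of the targets detected on all 6 arrays were lower. The intermediate chain DYNC1I2, which binds dynactin, measured 11.27, 10.63 and 10.72 (log2) in the control IPs against 10.00, 10.38 and 10.07 in the Stau1 IPs. The groups were apart, and the arrays numbered 2 were the nearest to each other. The difference was -0.72 (standard error 0.20, adjusted p = 0.324 by limma), and -0.96 without the arrays numbered 2 (adjusted p = 0.0630 by limma). The light intermediate chain DYNC1LI2, which links dynein to its cargo adaptors, had tight groups, with 10.91, 11.03 and 11.10 in the control IPs against 10.61, 10.70 and 10.55 in the Stau1 IPs. No Stau1 IP array reached a control IP array. The difference of -0.39 (standard error 0.09) had an adjusted p of 0.249 by limma and was -0.42 without the arrays numbered 2.

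The heavy chain DYNC1H1, which holds the motor domain, read 8.83, 9.32 and 9.19 in the control IPs against 8.45, 8.85 and 9.11 in the Stau1 IPs. The groups overlapped, and the difference was -0.31 (standard error 0.21, adjusted p = 0.762 by limma). DYNC1LI1, the other light intermediate chain, had -0.23 with groups apart, close to background and undetected on Stau1 IP array 2. The intermediate chain DYNC1I1, better known from neurons, had -0.29 with overlapping groups. The chains of the intraflagellar transport dynein, DYNC2H1 and DYNC2LI1, had -0.20 and -0.52, also overlapping, and DYNC2LI1 was detected on 3 arrays. Without the arrays numbered 2 the median of the class was -0.423, and that of DYNC2H1 was 0.17.

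Dynein light chains sit on the intermediate chains, and several also bind proteins outside dynein. Of the 6 targets, 3 (50.0%, against 5.16% of all targets) were lower at an unadjusted p under 0.05 by limma, among them DYNLT3, detected on 1 array, and 0 were higher. The share lower was 12.1% among targets detected on all 6 arrays. The median log2 fold change of the light chains was -0.428, or -0.585 without the arrays numbered 2. DYNLL1 measured 14.27, 13.99 and 13.87 (log2) in the control IPs against 13.52, 13.91 and 13.50 in the Stau1 IPs. Stau1 IP array 2 overlapped the controls and the other Stau1 IP arrays were below all of them. The difference was -0.40 (standard error 0.16, adjusted p = 0.503 by limma). A target under the older name DNCL1, which RefSeq lists as a synonym of DYNLL1, gave 14.79, 14.66 and 14.50 in the control IPs against 14.17, 14.60 and 14.27 in the Stau1 IPs. Its difference was -0.31 (adjusted p = 0.587 by limma), with the order of the arrays much like that of DYNLL1. The paralog DYNLL2 read 9.80, 9.70 and 9.82 in the control IPs against 9.75, 10.44 and 9.66 in the Stau1 IPs. Only the array Stau1 IP 2 was clearly above the others, and the difference of 0.18 became -0.07 without that array.

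DYNLT1, of the Tctex family, had 12.32, 11.98 and 11.84 in the control IPs against 11.53, 11.84 and 11.40 in the Stau1 IPs. Control IP array 3 and Stau1 IP array 2 were nearly equal and the groups just apart, and the difference was -0.46 (standard error 0.17, adjusted p = 0.462 by limma). DYNLT3, of the same family, passed detection in 1 of 3 control IPs and in 0 of 3 Stau1 IPs, with levels of 6.78, 6.38 and 6.23 against 5.89, 5.25 and 5.90. Since 5 of these 6 values did not pass detection, no fold is given. DYNLRB1, of the roadblock family, measured 12.74, 12.24 and 12.23 in the control IPs against 11.22, 12.63 and 11.43 in the Stau1 IPs. The array Stau1 IP 2 was about as high as control IP array 1, and the other Stau1 IP arrays were far below. The difference was -0.65 by the labels (standard error 0.39, adjusted p = 0.723 by limma), and DYNLRB1 fell by 1.17 without the arrays numbered 2 (adjusted p = 0.0403 by limma). That call was lost after the rebuilt transformation, with -1.24 and an adjusted p of 0.100 (limma). DYNLRB2 had a difference of -0.10 with overlapping groups. The target DNCL2A, an older name of DYNLRB1, was detected on no array.

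The dynactin subunits had differences of both signs. Of the 6, all detected on all 6 arrays, 1 (16.7%, against 5.16% of all targets) was lower at an unadjusted p under 0.05 by limma and 0 were higher. The like share of targets detected on all 6 arrays was 12.1% lower and 10.4% higher. The median log2 fold change was -0.042. DCTN6, a subunit of the pointed end, measured 8.92, 8.09 and 8.07 (log2) in the control IPs against 7.36, 7.89 and 7.46 in the Stau1 IPs. The groups were apart, with control IP array 1 well above the rest. The difference was -0.79 (standard error 0.27, adjusted p = 0.431 by limma), or -0.43 after the rebuilt transformation and -0.16 with the background as limma infers it. Its partner DCTN5, with which it forms a pair at the same end, had a difference of the other sign, with 10.58, 11.43 and 11.33 in the control IPs against 12.14, 11.18 and 12.03 in the Stau1 IPs. The array Stau1 IP 2 lay below control IP arrays 2 and 3, and the other Stau1 IP arrays above all controls. The difference was 0.67 by the labels (standard error 0.33, adjusted p = 0.635 by limma) and 1.13 without the arrays numbered 2 (adjusted p = 0.0772 by limma).

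DCTN3, the smallest subunit of the shoulder, read 11.56, 11.13 and 11.57 in the control IPs against 10.93, 11.77 and 10.73 in the Stau1 IPs. The array Stau1 IP 2 was the highest of the 6 and control IP array 2 the lowest control. By the labels the difference was -0.27 (adjusted p = 0.886 by limma), and DCTN3 fell by 0.74 without the arrays numbered 2 (standard error 0.12, adjusted p = 0.0346 by limma). DCTN1, the subunit that grips the microtubule, had 9.17, 9.44 and 9.57 in the control IPs against 9.17, 9.95 and 9.44 in the Stau1 IPs, and DCTN2, also called dynamitin, had 13.83, 13.66 and 13.82 and then 13.71, 14.12 and 13.58. Both were highest on Stau1 IP array 2. Their differences of 0.13 and 0.03 became -0.06 and -0.19 without the arrays numbered 2, and that of DCTN2 was -0.06 with median centring. DCTN4 had a difference of -0.12 with overlapping groups.

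**Figure D3:**
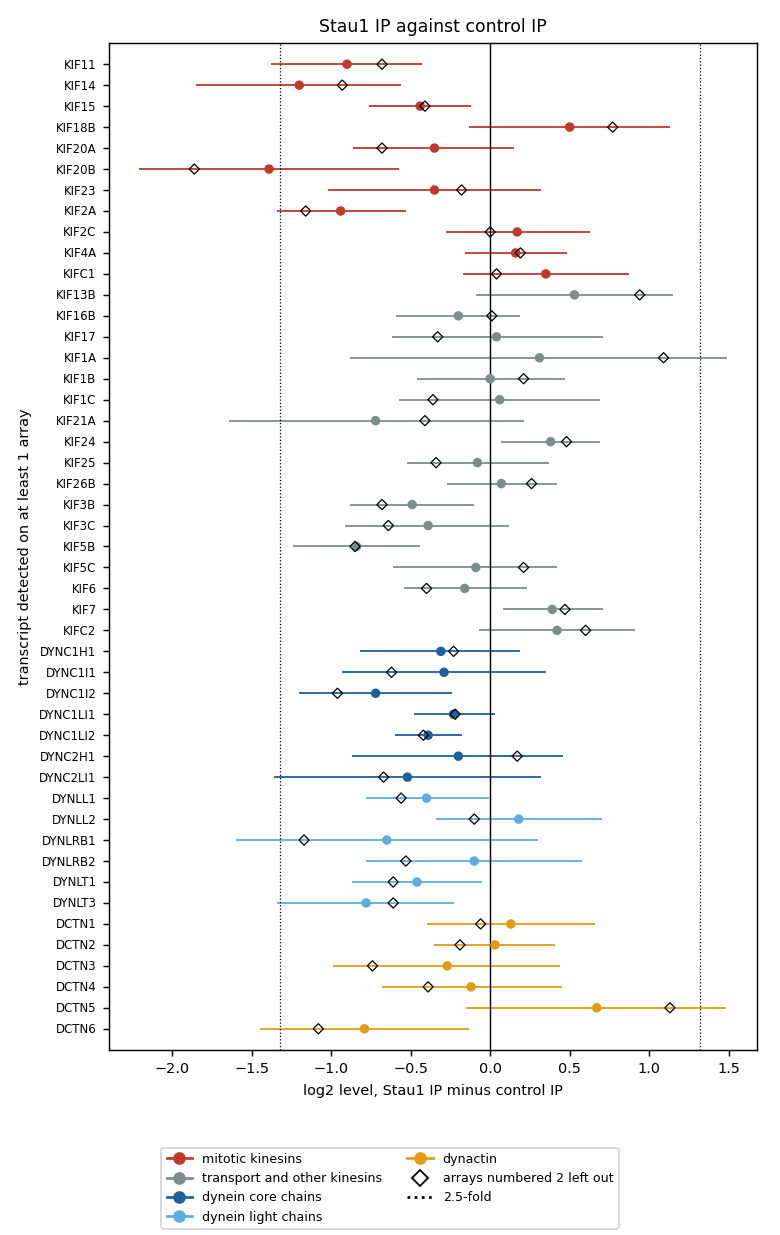
Difference in log2 level, Stau1 IP minus control IP, for the 47 motor transcripts detected on at least 1 array. Filled points and lines give the difference and its 95% confidence interval with 3 arrays per group by the labels, open diamonds give the difference without the arrays numbered 2, and dotted lines mark 2.5-fold. KIF20B alone lies beyond 2.5-fold, and the diamonds of DYNLRB1, KIF1A, DCTN3 and DCTN5 lie well away from their points.

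The arrays numbered 2 were also read singly against the other 4 arrays. For 24 members the mean of Stau1 IP arrays 1 and 3 differed from that of control IP arrays 1 and 3 by at least 0.5 on the log2 scale, with 19 lower and 5 higher. Among the 19, the array labelled Stau1 IP 2 was nearer to the controls for 10 (52.6%), and the array labelled control IP 2 was nearer to the Stau1 IPs for 5 (26.3%). Among all targets with such a gap on the lower side these shares were 60.9% and 42.0%. The difference between the arrays numbered 2 had the opposite sign for 6 of the 19 (31.6%), against 57.7% of all such targets. Among the 5 higher members it had the opposite sign for 4 (80.0%), against 70.2% of all such targets. These shares are a description, since the gap was measured on arrays that these were compared with.

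Both arrays numbered 2 lay on the side of their labels for KIF11, KIF14, KIF2A, KIF5B, DYNC1I2, DYNC2LI1, DYNLT3 and DCTN6. Both lay on the other side for KIF20A, KIF1A, KIF13B, DYNC1I1, DYNLRB2 and DCTN3. KIF20B, KIF3B, KIF3C, DYNLL1, DYNLRB1, DYNLT1, DCTN5 and KIF18B had both arrays nearer to control IP arrays 1 and 3, and KIFC2 and the undetected KIF18A had both nearer to Stau1 IP arrays 1 and 3. Where these arrays lay thus differed between members, as it did among all targets with such a gap. Why these arrays stand apart was not tested.

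**Figure D4:**
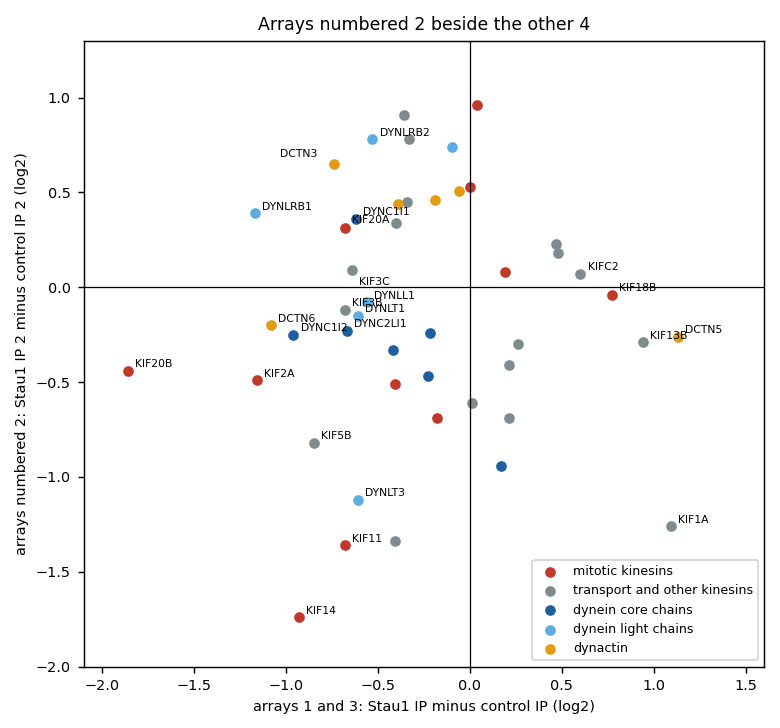
Each point is a motor transcript detected on at least 1 array, coloured by class. The horizontal axis gives the difference in log2 level between Stau1 IP and control IP on arrays 1 and 3, the vertical axis the same difference between the arrays numbered 2, and names mark transcripts with a horizontal difference of at least 0.5 in either direction. KIF20B, KIF2A, KIF14, KIF11 and KIF5B lie below 0 on both axes, whereas KIF1A, KIF13B and DCTN5 lie to the right and below 0 on the vertical axis.

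In all, 11 members were detected on no array and 11 on some but not all. The former were KIF18A, KIF2B, KIF12, KIF13A, KIF19, KIF21B, KIF27, KIF3A, KIF5A, KIF9 and KIFC3, so that KIF5A and KIF3A were undetected where KIF5B, KIF5C, KIF3B and KIF3C were detected. These targets did not pass detection, so that no fold is given for any of them. They stay in the counts and medians over all members and classes, and KIF18A is 1 of the 19 members with a gap of at least 0.5 on the lower side.

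The partners of these motors, taken as 4 lists outside the symbol rule, gave 0 calls at an adjusted p under 0.05 by the labels in limma. Their counts at an unadjusted p under 0.05 stand against 5.16% of all targets lower and 4.44% higher. Among targets detected on all 6 arrays these shares were 12.1% and 10.4%. Without the arrays numbered 2, 2.44% of all targets were lower and 3.28% higher at an adjusted p under 0.05 by limma. Among targets detected on all 6 arrays those shares were 7.82% and 8.70%. No alternative normalization is given for these lists. Apart from DNAL1, their members named here were picked after their values had been seen. In a list of 15 targets, kinesin partners and the kinetochore kinesin CENPE, 3 were lower and 3 higher at an unadjusted p under 0.05 by limma, with a median log2 fold change of -0.056, where that of all targets was 0.001. CENPE, a kinesin whose symbol falls outside the rule, was detected on all 3 control IP arrays and on none of the Stau1 IP arrays. Its levels were 6.06, 6.14 and 6.20 in the control IPs against 5.29, 5.23 and 5.04 in the Stau1 IPs. The groups were far apart and each was tight, the arrays numbered 2 included. The difference of CENPE was -0.94 (standard error 0.09, adjusted p = 0.167 by limma). Its size is uncertain, since no Stau1 IP value of CENPE passed detection. Without the arrays numbered 2 CENPE passed the adjusted threshold (adjusted p = 0.0258 by limma). In that comparison the kinesin light chain KLC1 fell by 0.97 and the kinesin-2 accessory subunit KIFAP3 by 0.92 (adjusted p = 0.0162 and 0.0268 by limma). The light chain KLC3 rose by 1.02 (adjusted p = 0.0151 by limma). By the labels KLC1, KIFAP3 and KLC3 had -0.43, -0.59 and 0.69 (adjusted p = 0.83, 0.454 and 0.402 by limma). Stau1 IP array 2 minus control IP array 2 was 0.66 for KLC1, 0.08 for KIFAP3 and 0.04 for KLC3.

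Of 19 dynein regulators and adaptors, 5 were lower and 0 higher at an unadjusted p under 0.05 by limma, with a median of -0.229. CCDC99, which recruits dynein to kinetochores, measured 9.48, 9.07 and 9.22 in the control IPs against 8.49, 7.42 and 8.23 in the Stau1 IPs, with the lowest value on Stau1 IP array 2. Its difference was -1.21 (standard error 0.29, adjusted p = 0.263 by limma), and it fell by 0.99 without the arrays numbered 2 (adjusted p = 0.0311 by limma). In that comparison the adaptor HOOK1 fell by 0.68 (adjusted p = 0.0297 by limma) and RAB11FIP3 rose by 0.78 (adjusted p = 0.0353 by limma). By the labels HOOK1 had -0.50 (adjusted p = 0.432 by limma) and RAB11FIP3 had 0.33 (adjusted p = 0.836 by limma). Stau1 IP array 2 minus control IP array 2 was -0.15 for HOOK1 and -0.57 for RAB11FIP3. Of the 6 dynactin subunits that carry other names, 2 were lower and 1 higher at an unadjusted p under 0.05 by limma. Their median was -0.277. CAPZB, which caps the actin-related filament, fell by 0.86 without the arrays numbered 2 (adjusted p = 0.0254 by limma). By the labels CAPZB had -0.22 (adjusted p = 0.949 by limma), with overlapping groups. Stau1 IP array 2 minus control IP array 2 was 1.05 for CAPZB. Of 20 axonemal and ciliary dynein genes, 3 were lower and 1 higher with a median of -0.029, and 10 were detected on no array. The light chain DNAL1 read 9.21, 8.30 and 8.79 in the control IPs against 7.64, 8.62 and 7.44 in the Stau1 IPs. Its value on Stau1 IP array 2 lay among the controls. By the labels the difference of DNAL1 was -0.86 (adjusted p = 0.549 by limma). DNAL1 was the 1 target of these lists past the threshold of the methods without the arrays numbered 2. There it fell by 1.46 (adjusted p = 0.0196 by limma). At that threshold 0.285% of all targets were depleted without the arrays numbered 2. WDR34, an intermediate chain of the intraflagellar transport dynein, had a difference of 0.75 by the labels (adjusted p = 0.207 by limma) and rose by 0.92 without those arrays (adjusted p = 0.0159 by limma).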

How the data were processed

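RNA from 3 control IPs and 3 Stau1 IPs of HEK293T cells was hybridized to 6 Illumina BeadChips. The authors deposited, per target and array, the signal intensity as BeadStudio wrote it, without background subtraction or normalization and with the probes of a target combined. They also deposited a detection p-value that sets a target against the negative controls of its array, the bead standard error (an intensity) and, as a score, the number of beads. The detection p did not always follow the deposited signal. STAU1 on control IP array 1, for example, had a signal of 2499 and a detection p of 0.0542, so that a target not detected need not be dim. Bead numbers can be fractional where probes were averaged.

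Levels were computed in R 4.3.3 with limma 3.58.1. The negative-control mean was the median signal of the 200 targets nearest a detection p of 0.5, and the SD came from the signals at 0.16 and 0.84. limma's own inference gave SDs of 460.3 to 608.2, since 341 to 409 bright targets per array have a high detection p, and was kept as an alternative. Signals were corrected by normexp with an offset of 16, put on the log2 scale and quantile normalized, and all 37879 targets were fitted with lmFit and eBayes (two-sided, Benjamini-Hochberg over all targets), with groups from the labels. An offset of this size understates the changes of dim targets. Instead of the authors' software, its variance stabilizing transformation and spline normalization were rebuilt with mgcv 1.9.3 as an alternative. Python 3.11.15 with matplotlib 3.10.9 drew the figures. The steps were tested on simulated arrays.

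Members, classes and lists were chosen with earlier results of these data known. Values of every array were given for members past the methods' threshold, the 6 with the largest difference in either comparison among those detected on at least 3 arrays, the 5 brightest, and KIF5B, KIF11, DYNC1H1, DCTN1, DYNLL1 and DYNLL2, and, chosen after values were seen, for the other members with an adjusted call, DYNC1I2, DYNC1LI2 and DYNLT3. The replicate numbers were not treated as pairs in the main fit, and the deviations of same-numbered arrays cannot show whether they pair. The files carry no probe sequence and no genome build, so that neither is given, and probe positions could not be set against isoforms. Of the older targets DNCL1 and DNCL2A, the current symbols were taken from RefSeq synonyms. A further marker on the fixed list is not reported here.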

Additional observations from a re-analysis of the deposited data

How the results depend on the processing

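The number of members enriched at the threshold of the methods was 0 under every alternative run. Of all targets, 0.0264% were enriched by the labels and 1.21% without the arrays numbered 2, so that a count of 0 says little about the members. The number depleted, 1 by the labels (0.0343% of all targets), was 0 after the rebuilt transformation and spline, 0 without background correction, 0 with the background as limma infers it, 2 at a 2-fold threshold, and 0 to 2 when single arrays were left out. The median log2 fold change of the members, -0.106 by the labels, was -0.029 after the rebuilt transformation, -0.007 with the background as limma infers it, -0.199 over targets detected on at least 3 arrays, -0.225 without both arrays numbered 2, and -0.166 to -0.068 when single arrays were left out. Without the arrays numbered 2 the median of -0.225 became -0.057, -0.02, -0.351, -0.139 and -0.146 after the rebuilt transformation, limma's inference, the detection filter, no background correction and median centring. The median kept its sign throughout. A few named members near 0 changed sign. DCTN1 turned from 0.13 to -0.09 without Stau1 IP array 2 and -0.06 without both arrays numbered 2. DCTN2 turned from 0.03 to -0.01 after the rebuilt transformation, -0.06 with median centring, -0.03 without control IP array 2, -0.13 without Stau1 IP array 2 and -0.19 without both. DYNLL2 turned from 0.18 to -0.07 without Stau1 IP array 2 and -0.10 without both, and KIF1A from 0.31 to -0.03 without control IP array 1. Over all single arrays left out, DCTN1 ranged from -0.09 to 0.30, DCTN2 from -0.13 to 0.14, DYNLL2 from -0.07 to 0.32 and KIF1A from -0.03 to 0.73. The causes were not tested.

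With the replicate number as a block, the median stayed at -0.106, 1 member was depleted, 0 targets passed the adjusted threshold, and no call changed. The deviations of same-numbered arrays correlated at -0.41, -0.74 and -0.39 over 9884 targets. They were taken from the means of the labelled groups, so that an exchange of the arrays numbered 2 would itself make these values negative. Whether the numbers pair the samples therefore cannot be judged from them. Differences of KIF5B, KIF14, KIF20B and DCTN6 shrank with the background as limma infers it, to -0.04, -0.10, -0.23 and -0.16 by the labels, and 2 or 3 arrays per group limit the precision of every value.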
